A study of Mus musculus with 2 samples.

Results

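The genes described here encode fibulins and other proteins of elastic fibres. They were a fixed list of 10 genes (Fbln1, Fbln2, Fbln5, Fbln7, Efemp1, Efemp2, Eln, Fbn1, Fbn2 and Emilin1), chosen from earlier results on these same arrays and read through every probe set whose single annotated gene symbol was on the list. Of the 10 genes, 8 had a probe set, 15 probe sets in all, out of 18193 genes and 45101 probe sets. Efemp2 and Fbn1 were matched to no probe set in the annotation used and were not analysed here. Because the contrast between the arrays had a part in choosing the genes, the values are given as a description, and no test was made on them.

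The measurements come from C2C12, a mouse myoblast line that fuses into myotubes in low serum. The study asked which genes differ when Lrrfip1, the gene of a nucleic acid-binding protein that also binds the actin remodelling protein Flii, is knocked down during differentiation. One array held RNA of cells with the short hairpin shLrrfip1a and 1 array held RNA of cells with the control hairpin, written shLCUI in the sample labels and shLUCI in the series text. Both cultures had spent 5 days in horse serum medium. Only 1 hairpin against Lrrfip1 is represented on these arrays. Whether the cells were a pool or a clone is not given in the sources used here. With 1 array per group, no difference below has a replicate check, an SD or a p-value.

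Elastic fibres consist of a core of cross-linked elastin laid on a scaffold of fibrillin microfibrils. Fibulins are secreted glycoproteins, built mostly of calcium-binding EGF-like modules with a shared C-terminal module, which link elastin, microfibrils, basement membranes and proteoglycans. In skeletal muscle, elastic fibres lie in the connective tissue around fibres and fascicles and in vessel walls, and fibroblasts and smooth muscle cells are their best known makers.

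On the deposited intensity scale the medians of the arrays were 53.5 for shLrrfip1a and 51.4 for control. Differences are shLrrfip1a minus control on log2(intensity + 16), so a positive value means higher in the knockdown, and the size of a dim gene's change is understated. A gene was read from its brightest probe set and counted where the mean level lay above the median probe set, an intensity of 52.4. This filter kept 11448 genes, whose differences had a median of 0.00 and a robust SD of 0.23. Lrrfip1 was lower on each of its 3 probe sets, at 62.2% to 70.6% of the control intensity. Of 14 myotube markers, 13 passed the filter, among them skeletal actin Acta1 (5220 and 5586), and none was past 2-fold. Only 0.664% of all genes above the filter were 2-fold higher and 0.690% 2-fold lower, so nothing is read from there being none. The largest differences among the markers were those of the myogenic factor Myod1 (894 against 602, 0.56) and cardiac actin Actc1 (1725 against 2293, -0.41). The factor Myog read 2005 against 2612 (-0.38). Of the 42 bacterial and phage spike-in probe sets, 38 were lower on the shLrrfip1a array (median log2 difference -0.16). The 24 Bacillus subtilis sets among the 42 were all lower, so the sets that were not lower were of the other kinds. Scaling to all 42 pooled added 0.15 to the differences of bright genes and less to those of dim ones.

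Fbln7 and Fbln1 were the members that stood far above their control level, while Fbln5 was lower and the log2 differences of the remaining members were all smaller than 0.5 in size. Of the 8 measured members, 6 passed the filter. At least 2-fold higher were 2 of these 6, against 0.664% of all genes above the filter. At least 2-fold lower were 0 of 6, against 0.690% of all genes. Since the genes were chosen with this contrast known, nothing is read from these shares. The median difference was 0.27 over the 6 genes and 0.26 over all 8, beside 0.00 for all genes above the filter. Between the 2 directions the 6 genes spanned 2.84 log2 units.

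**Figure D1:**
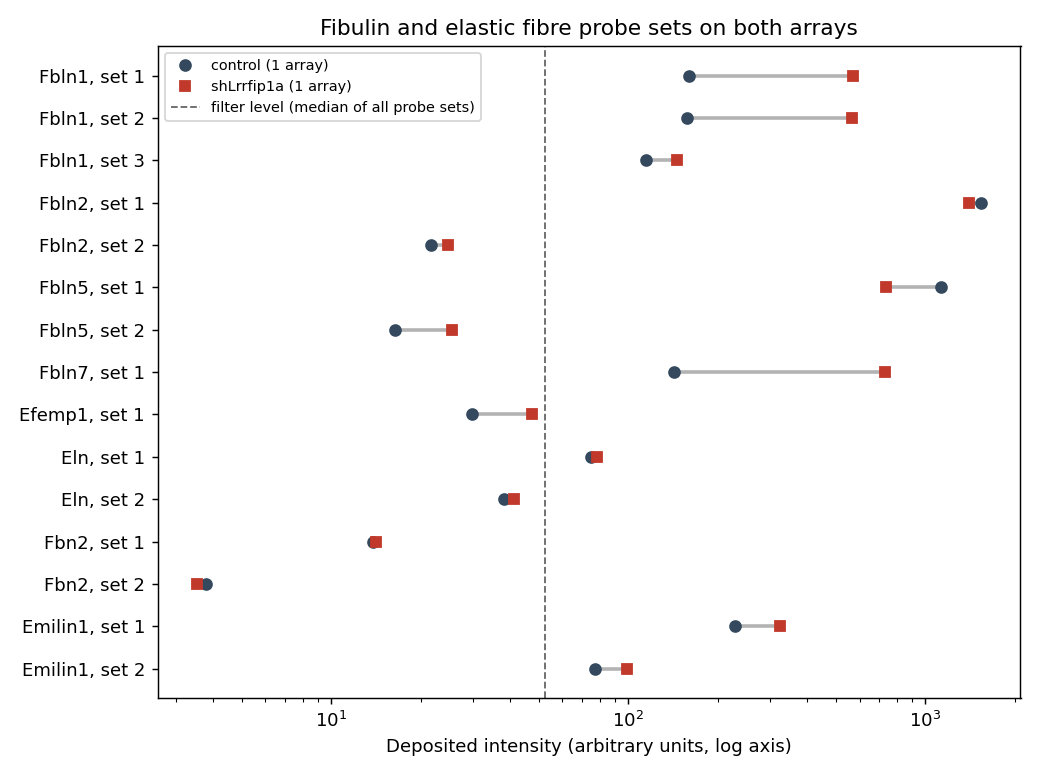
Deposited intensity (arbitrary units, log axis) of each of the 15 probe sets of the 8 measured genes, numbered by brightness within a gene; the square is the 1 shLrrfip1a array, the circle the 1 control array and the dashed line the filter level of 52.4. The wide gaps are those of Fbln7 and of the first 2 Fbln1 probe sets, with the square on the right, while Fbln5 set 1 has the square on the left.

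Fbln7 encodes an adhesion protein of the fibulin family, first described in developing teeth which can bind heparin. Its single probe set, 1460412_at, read 729 in shLrrfip1a and 142 in control. The intensity was thus 5.13 times the control, and the log2 difference was 2.24. The shLrrfip1a value was far above the filter level and the control value was above it too, so the ratio did not rest on a reading near the floor. Fbln7 ranked 12 from the top among 11448 genes. There was no other Fbln7 probe set to compare it with, so the value rests on 1 set of probes.

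Fbln1 encodes a fibulin of elastic fibre cores and basement membranes that binds fibronectin, laminin, nidogen and versican. Its brightest probe set, 1422540_at, read 571 in shLrrfip1a and 160 in control, a ratio of 3.56 and a log2 difference of 1.73. A second one, 1451119_a_at, read 567 and 157, a ratio of 3.61 and a log2 difference of 1.75. These 2 probe sets gave nearly the same pair of values. The third, 1439688_at, read 146 and 115, a ratio of 1.27 and a log2 difference of 0.31. All 3 lay above the filter and were higher in shLrrfip1a, but the third showed a much smaller difference. Which part of the transcript each probe set reads was not analysed here. Fbln1 ranked 25 from the top on its brightest probe set. Its difference was 1.26 when the 3 probe sets were averaged.

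Fbln5 encodes an integrin-binding fibulin that brings tropoelastin to microfibrils and is needed for elastic fibre assembly in mice. Its bright probe set, 1416164_at, read 738 in shLrrfip1a and 1130 in control, or 65.3% of control, with a log2 difference of -0.60. This was the lowest value among the 6 members, and 2.30% of all genes above the filter had a lower one. The other probe set, 1446377_at, went the other way at 25.5 against 16.3 (log2 difference 0.36). Both of those readings lay below the filter level. Averaging the pair moved the Fbln5 difference to -0.12.

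The DNA before the annotated starts of these 3 genes is shown because Fbln7 and Fbln1 had the highest differences of the 6 members and Fbln5 the lowest. The sequences are RefSeq promoter windows of build GRCm38.p6, read 5′ to 3′ on the gene's strand, and they stop before the gene's outermost annotated start. The stretches are chr2:128863682-128863864 on the plus strand for Fbln7, chr15:85205699-85205948 on the plus strand for Fbln1 and chr12:101819120-101819369 on the minus strand for Fbln5. Capitals mark matches, on either strand, to an E-box (CANNTG), a GC box (GGGCGG), an AP-1 site (TGANTCA) or a TATA box (TATAAA). The marked matches do not overlap.
Fbln7: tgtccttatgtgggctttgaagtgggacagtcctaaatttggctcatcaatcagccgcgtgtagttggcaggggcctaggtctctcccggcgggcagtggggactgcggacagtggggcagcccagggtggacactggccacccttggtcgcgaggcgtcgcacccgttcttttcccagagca
Fbln1: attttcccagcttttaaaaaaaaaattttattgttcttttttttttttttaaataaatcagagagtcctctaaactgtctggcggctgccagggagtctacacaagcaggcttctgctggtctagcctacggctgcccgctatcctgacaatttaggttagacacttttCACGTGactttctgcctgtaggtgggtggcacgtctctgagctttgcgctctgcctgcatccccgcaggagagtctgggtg
Fbln5: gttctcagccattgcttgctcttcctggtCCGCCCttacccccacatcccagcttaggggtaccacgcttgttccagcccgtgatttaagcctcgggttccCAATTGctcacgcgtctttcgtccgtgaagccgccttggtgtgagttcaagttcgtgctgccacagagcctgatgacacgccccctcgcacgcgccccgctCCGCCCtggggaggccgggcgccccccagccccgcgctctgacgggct

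The Fbln7 window, searched over its full 300 bases (250 before to 50 after the start), held none of the 4 motifs. Upstream of the first Fbln1 start there was 1 match, the E-box CACGTG beginning 81 bases before it. In Fbln5 the E-box CAATTG began 149 bases before the first start, and GC boxes on the opposite strand began 221 and 48 bases before it. Among all 32851 windows of this length, 72.3% held an E-box, 35.7% a GC box, 7.8% an AP-1 site and 13.6% a TATA box. After the first starts, the Fbln1 window held a second E-box, CAGCTG, at base 12. The Fbln5 window likewise held a second E-box, CACTTG, at base 18 after its first start. A second annotated Fbln1 start, a little downstream, had the same 2 E-boxes in its window as the first, and also 2 GC boxes. The window of a second Fbln5 start held none of the 4 motifs. The GC content of the 250 bases before the start was 63.2% for Fbln7, 46.4% for the first Fbln1 start and 65.2% for the first Fbln5 start, against 62.4% and 49.6% for the second starts of Fbln1 and Fbln5. A match describes letters, not binding, and a lack of matches says only that these letters are not in the window. Of the 8 measured genes, 6 had a window in the table; Fbln2 and Efemp1 held both an E-box and a GC box, Efemp1 also held the AP-1 match TGAATCA, and Emilin1 held an E-box.

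Fbln2, a fibulin of basement membranes and vessel walls that binds nidogen and versican, was bright and close to level. Its probe set 1423407_a_at read 1404 in shLrrfip1a and 1542 in control, a log2 difference of -0.13, which is inside the robust SD of all genes. The dim second probe set read 24.7 and 21.7 (0.11). With scaling to the spike-in controls the Fbln2 difference was 0.02, so its sign was not fixed. The 4 genes with the Fbln name thus covered -0.60 to 2.24.

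Efemp1 encodes a fibulin of fasciae and of the eye's basement membrane. Its single probe set read 47.3 in shLrrfip1a and 29.8 in control (log2 difference 0.47). Both values lay below the filter level, so Efemp1 was not counted, and the size of its difference moved from 0.25 to 0.65 between pseudocounts of 64 and 1.

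Among the fibre components themselves, Eln, the gene of elastin, was dim and level. Its probe sets read 78.6 against 74.7 (log2 difference 0.06) and 41.1 against 38.2 (0.08), the latter below the filter. Fbn2, which encodes a fibrillin abundant in developing tissue, read 14.1 against 13.9 and 3.53 against 3.78, far below the filter on both arrays. Its difference of 0.01 changed sign with median centring, quantile normalization and loess scaling (-0.01 in each). Without detection calls a dim probe set cannot be called absent.

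Emilin1 encodes a glycoprotein at the interface of elastin and microfibrils, which also restrains the maturation of TGF-beta. Its probe sets read 325 in shLrrfip1a against 228 in control (log2 difference 0.48) and 98.7 against 77.5 (0.30). Both were above the filter and both were higher in shLrrfip1a. A higher difference was found for 3.99% of the genes above the filter, and Emilin1 remained under the 2-fold size. Its paralog Emilin2 read 367 against 414 (-0.17).

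**Figure D2:**
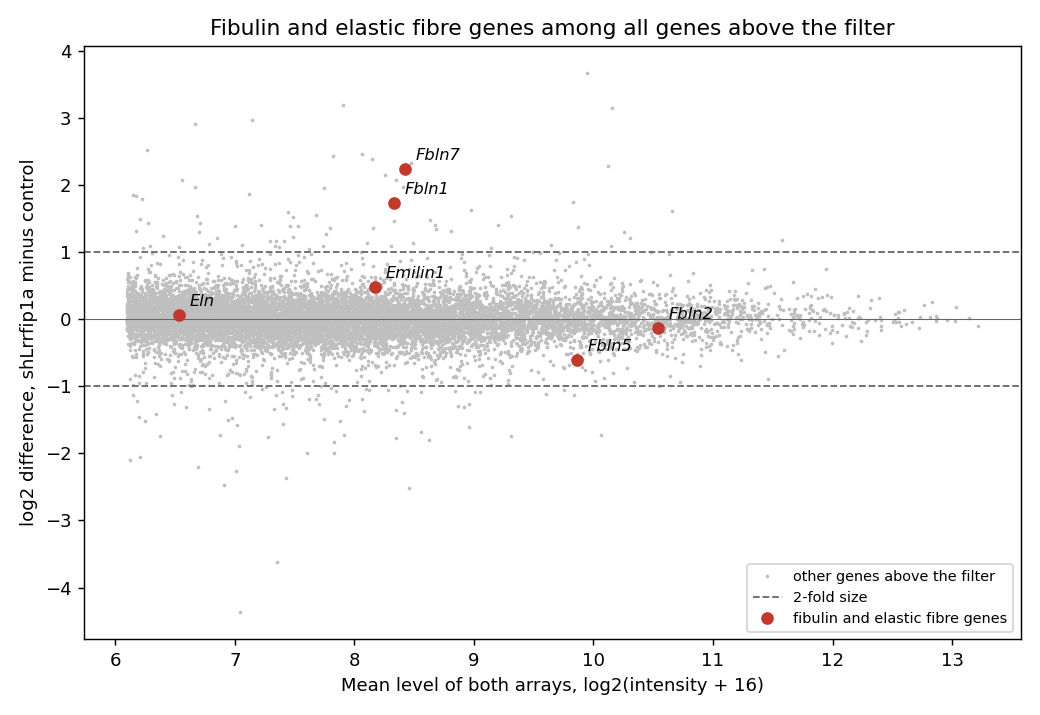
Each point is 1 of 11448 genes above the filter: the x axis is its mean level on both arrays, log2(intensity + 16), and the y axis its log2 difference, shLrrfip1a minus control; dashed lines mark 2-fold. Fbln7 (2.24) and Fbln1 (1.73) lie above the upper line, Fbln5 (-0.60) lies at the lower edge of the cloud, and Emilin1, Eln and Fbln2 lie within it.

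In all, 12 of the 15 probe sets were higher and 3 lower in shLrrfip1a. By gene, 4 of the 6 above the filter were higher and 2 lower. The share of higher probe sets over the whole array was not computed, so nothing is read from these counts. The 3 lower probe sets were the bright sets of Fbln2 and Fbln5 and the dimmer set of Fbn2. Of the 15, 6 were below the filter, and none of those differed by more than 0.47. RNA came from whole cultures, so more cells of a kind and more RNA per cell cannot be told apart.

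Partner genes of elastic fibres were read in 7 lists of 92 genes, of which 69 passed the filter. Of these 69, 1 was at least 2-fold higher (Mmp2) and 1 at least 2-fold lower (Vcan). Over all genes above the filter, 0.664% were 2-fold higher and 0.690% 2-fold lower. Nothing is therefore read from these 2-fold counts or from those of the lists below. The median difference of the 69 was 0.01, near that of all genes. No gene of the microfibril, cross-linking, ADAMTS, receptor or TGF-beta lists passed 2-fold in either direction.

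Microfibril-associated and emilin partner genes had 0 of 9 past 2-fold and a median of -0.11, which became 0.05 with spike-in scaling and 0.04 without the filter. The largest differences were those of Mfap3l (299 against 493, -0.69, lower on 3 of 3 probe sets) and Ltbp3, a latent TGF-beta binding protein (1299 against 1008, 0.36). Mfap5, a microfibril glycoprotein, was bright and nearly level at 2139 against 2314 (-0.11). Hmcn1, a giant protein of the fibulin family, was below the filter at 34.5 and 27.0.

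Of the 5 listed lysyl oxidases, which cross-link tropoelastin and collagen, 4 were measured and Loxl2 was matched to no probe set. The 4 measured ones were all lower in shLrrfip1a and none reached 2-fold. Lox read 2451 against 3593 (log2 difference -0.55), and its other probe set above the filter gave -0.95. Loxl1, which Fbln5 is known to bind, read 1368 against 1698 (-0.31). Loxl4 read 105 against 145 (-0.41) and Loxl3 557 against 596 (-0.10). The list median was -0.36 and stayed between -0.41 and -0.21 in the alternatives.

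ADAMTS and ADAMTS-like proteins that bind fibrillin had 0 of 8 past 2-fold, with 6 higher and 2 lower and a median of 0.23 (0.36 with spike-in scaling). Adamtsl3 (750 against 535, 0.48) and Adamtsl1 (100.4 against 69.6, 0.44) led the higher ones, and Adamts6 was lower (177 against 240, -0.41). Elastin receptor subunits and integrins had 0 of 9 past 2-fold, 7 of them lower, with a median of -0.20. That median lay between -0.07 and -0.04 under 5 alternatives, among them spike-in scaling (-0.04) and no filter (-0.05). Itgb3, the partner of the alpha v chain in an RGD-binding integrin, read 57.4 against 109 (-0.77). Neu1, the sialidase of the elastin receptor, read 54.9 against 91.8 (-0.60). Both values in shLrrfip1a were close to the filter level.

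Proteases that cut elastic fibres, with their inhibitors, had 1 of 12 past 2-fold. The gelatinase Mmp2 read 4564 against 2017 (1.17, with 1.10 on its other probe set). Timp1, an inhibitor of such enzymes, read 2048 against 3820 (-0.89), whereas Timp2 (4307 against 3152, 0.45) and Timp3 (3989 against 3085, 0.37) were higher on each of their probe sets above the filter. Elastases of leukocytes were dim, with Mmp12 at 12.7 and 11.4 and Elane at 45.2 and 45.4.

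Proteins to which fibulins bind differed in both directions, with 10 higher and 7 lower among 17. Vcan, whose proteoglycan versican binds Fbln1 and Fbln2, was the 1 past 2-fold, at 603 against 1335 (-1.13). It was lower on each of the 3 Vcan probe sets that passed the filter, but it no longer reached 2-fold with spike-in scaling or with the mean over all probe sets. The basement membrane linker Nid2 read 1305 against 697 (0.89), while its paralog Nid1 read 934 against 996 (-0.09). The fibronectin gene Fn1 was bright and close to level on 1 probe set (6113 against 6428, -0.07) and lower on the other (-0.65). The list median of 0.06 became -0.10 with the mean over probe sets. For TGF-beta ligands, receptors and targets none of 10 reached 2-fold and the median was 0.11, which ran from 0.05 with median centring to 0.26 with spike-in scaling. Bmp4 (810 against 484, 0.72) and Tgfb3 (662 against 448, 0.55) had the largest differences.

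**Figure D3:**
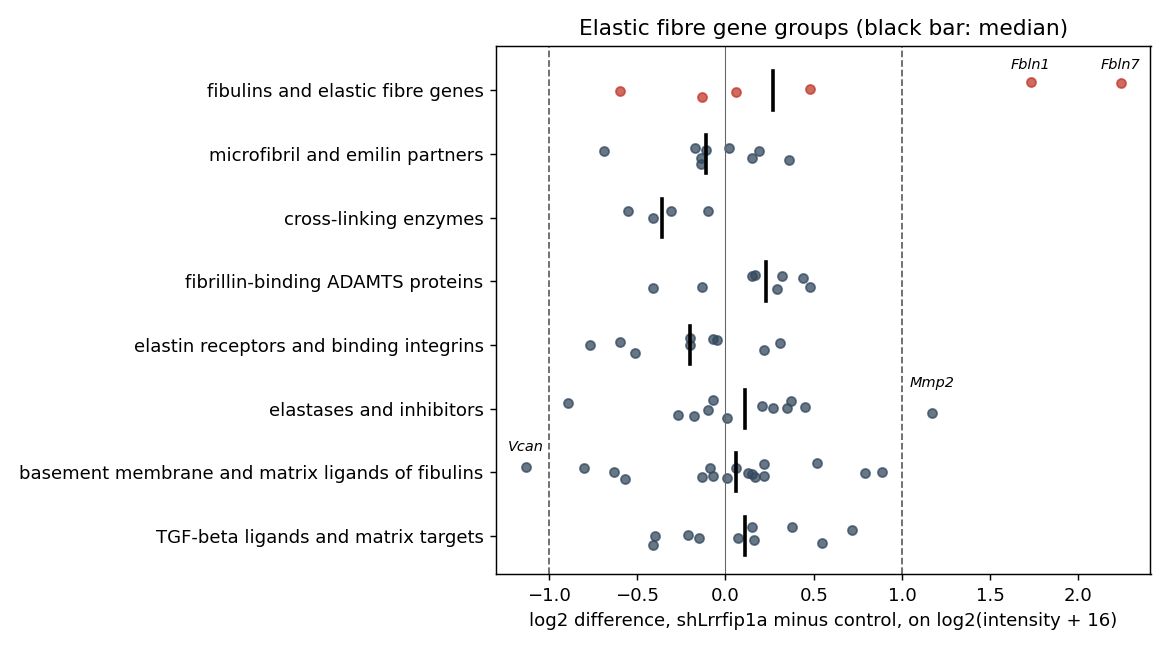
Each point is 1 gene above the filter in the named group, placed by its log2 difference, shLrrfip1a minus control, on log2(intensity + 16); black bars are group medians and dashed lines mark 2-fold, and the vertical scatter carries no value. Past the lines are Fbln1 and Fbln7 in the top row (red), Mmp2 among the proteases and Vcan among the fibulin ligands, and the 4 cross-linking enzymes all lie left of 0.

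Markers of other elastic fibre makers were read beside these values. Among fibroblast markers 13 of 15 passed the filter, and 1 was at least 2-fold higher (Dcn, 3497 against 260, 3.67). At least 2-fold lower was 1 (Dpt, 48.4 against 197, -1.73), with an shLrrfip1a reading below the filter level. The summed intensity of the 13 fibroblast markers was 37650 in shLrrfip1a and 35265 in control, with single markers from 48.4 to 7579 and from 54.9 to 7540. Dcn alone differed by more than these sums did. Of the 13 markers 6 were higher and 7 lower, and the list median was -0.02. Smooth muscle and endothelial markers passed in 7 of 12, with a summed intensity of 12089 and 11315 and a median of -0.16. Most of that sum was Acta2 (7970 against 6655), and of the 7 markers 2 were higher and 5 lower. Des, 1 of the 7, was also read as a myotube marker. The lowest difference among the 7 was that of Smtn, a smooth muscle cytoskeletal gene (187 against 228, -0.27). Kdr, a VEGF receptor, was the 1 past 2-fold (118 against 48.0, 1.07), with a control reading below the filter level. The endothelial genes Pecam1, Cdh5, Tek, Tie1 and Vwf lay below the filter on both arrays, at 8.90 to 33.6. The lowest deposited value on either array was 1, so that no marker was listed at 0 says nothing about other cell types. The part of other cell types in the Fbln7 and Fbln1 differences was not tested.

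At the 2-fold size, other processing left the call on each member in place. Over 8 alternatives the Fbln7 difference ran from 1.94 (pseudocount 64) to 2.39 (spike-in scaling), and the Fbln1 difference from 1.26 (mean over probe sets) to 1.89 (spike-in scaling). Fbln5 stayed between -0.66 and -0.45 wherever its dim probe set was left out.

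**Figure D4:**
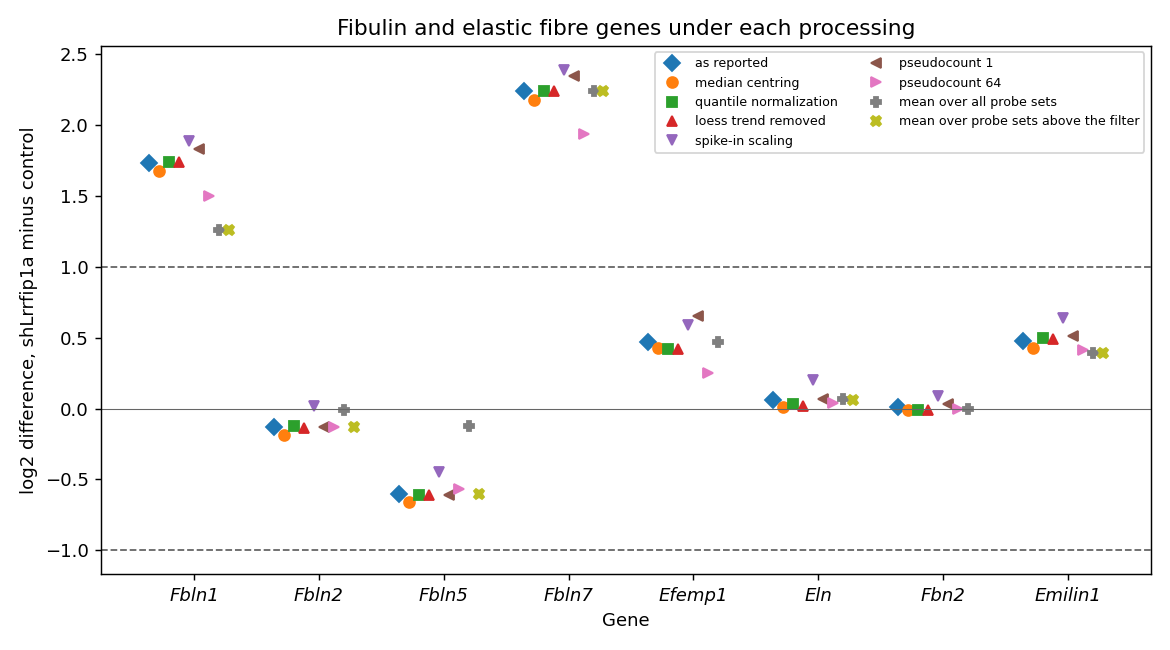
Log2 difference, shLrrfip1a minus control, of each of the 8 measured genes (x axis) as reported (diamonds) and under 8 alternatives (7 for Efemp1 and Fbn2, which have no probe set above the filter to average) for scaling, pseudocount and choice of probe sets; dashed lines mark 2-fold. Fbln1 (1.26 to 1.89) and Fbln7 (1.94 to 2.39) stay above the upper line under each of them, and Fbln5 moves towards 0 (-0.12) when its dim probe set is averaged in.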

How the data were processed

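Biotin-labelled cRNA from 2 C2C12 cultures was read on Affymetrix mouse arrays, per the labels' protocols. The authors deposited 1 linear intensity per probe set and array, with a lowest value of 1. How probes were summarised, corrected and scaled, and any detection calls or genome build, is not given in the sources used here. Probe sets were named through the platform annotation, and 34945 probe sets that are not controls had 1 gene symbol. With no rescaling, log2(intensity + 16) was used, the brightest probe set stood for a gene, and 2-fold was used as a size without a test. The calling step was checked on simulated data with known fold changes. All of these were well past 2-fold, so calls near that size were not checked. The simulated noise was smaller than the spread of the real differences, so false calls at the real spread were not checked either. Python 3.11.15, numpy 2.4.6, pandas 2.3.3 and statsmodels 0.14.6 were used. Named were each probe set of each listed gene and, in the partner and marker lists, genes past 2-fold and the 2 largest differences; further genes were named after their values were seen. The genes and lists were chosen with earlier results of these data known. Alternatives covered scaling, pseudocount, filter, choice of probe sets and size. The number of arrays limits the precision. Promoter letters are RefSeq's (GRCm38.p6); protein sequences were not used here.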

Additional observations from a re-analysis of the deposited data

How the results depend on the processing

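No paired analysis was possible because there was 1 array of each kind, and for the same reason none could be left out. The 2 members at least 2-fold higher stayed 2 in 12 of 12 alternatives, including the 3-fold size. Members lower numbered 1 (Fbln5) at the 1.5-fold size and 0 otherwise. Their median difference ran from 0.22 to 0.48 over 10 alternatives, and from 0.14 to 0.39 over all 8 genes. Among the 69 partner genes, the counts higher and lower (1 and 1) became 2 and 0 with spike-in scaling, 4 and 7 at 1.5-fold and 0 and 0 at 3-fold, and the count lower became 0 with the mean over all probe sets. Averaging over all probe sets also moved Fbln5 from -0.60 to -0.12, since its dim probe set then counts equally. Fbln5, Fbln2, Efemp1, Eln and Fbn2 each had at least 1 probe set below the filter level, where a small change in signal gives a large ratio.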

Other observations

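The nearest protein-coding genes, 3 on each side of each measured member in the order of the RefSeq gene table, were looked up after the members' values were seen. Of these neighbours 37 passed the filter and 0 were past 2-fold in either direction by size, beside 0.664% of all genes above the filter that were 2-fold higher and 0.690% that were 2-fold lower, so nothing is read from this count. Next to Fbln7, Tmem87b read 153 in shLrrfip1a against 154 in control (log2 difference -0.01) and Zc3h8 75.5 against 71.5 (0.06). Next to Fbln1, Atxn10 read 2487 against 2023 (0.30), and Ribc2 on the other side was below the filter (34.0 against 34.8). The largest difference among the 37 was that of Wnt7a, a Wnt ligand beside Fbln2, at 187 against 105 (0.74).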
